A study of Mus musculus with 2 samples.

Results

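The urothelium, the stratified epithelium that lines the ureter, is set up by a group of transcription factors, and 10 of their genes, Trp63, Klf5, Foxa1, Gata3, Pparg, Elf3, Ehf, Grhl2, Grhl3 and Ovol1, were followed here in newborn mouse ureters in which WNT secretion was blocked. The genes were chosen by name, as factors of urothelial differentiation, out of 29924 genes on the array, and all 10 were found on it, with 15 probes in all. The ureters came from wild-type NMRI pups at P0 and were held for 18 h on membranes, in medium with 5 µM IWP-2 or with its solvent DMSO as control. IWP-2 inhibits Porcupine, the enzyme that attaches the lipid that WNT ligands need to leave the cell. Whole ureters were used, pooled by 5 or 6, so that epithelium, lamina propria, smooth muscle, vessels, nerves and blood cells all contributed RNA, and in such bulk samples fewer cells of a type and less RNA per cell cannot be told apart. There were 4 pools on 2 two-colour arrays: array 1 held the female control and the female IWP-2 pool, and array 2 held the male control and the male IWP-2 pool with the dyes exchanged. Each condition thus had n = 2, and a difference between the arrays may go with sex, with the dyes or with the pools, which cannot be told apart.

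As background, the urothelium has a basal, an intermediate and a superficial layer. p63, encoded by Trp63, is needed for stratified epithelia and their basal cells. FOXA1, GATA3 and PPARG act together on genes of the superficial cells, among them the uroplakins that build the apical plaques, and the ETS factor ELF3 acts below PPARG. KLF5 is required for urothelial maturation in the bladder. The grainyhead-like factors GRHL2 and GRHL3 act on epithelial junctions and on barrier formation. WNT ligands of the ureteric epithelium are known to act on the mesenchyme around it.

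No transcription factor of the group passed the test under IWP-2, and their largest mean change, that of Grhl3, was 1.31-fold. Of 10 genes, 9 were bright enough to be tested, with a signal that averaged over 100 for the controls or for IWP-2. limma called 0 of these 9, against 1.25% of the 14336 genes tested (0.363% higher and 0.886% lower) at a Benjamini-Hochberg adjusted p under 0.05, with adjusted p of the members between 0.109 and 0.967. Of all genes, 52 were thus called higher and 127 lower, and 85 higher and 108 lower with median centring in place of loess, under which the factors' call count was also 0. It was 1 (Grhl3) with normexp background correction and 3 (Trp63, Grhl2 and Gata3) with the deposited fold changes, in which these 3 had the same value in both arrays. At an unadjusted p under 0.05, limma gave 4 of 9, namely Trp63, Gata3, Pparg and Grhl3, all higher, where 6.27% of all genes were higher and 6.64% lower. The median log2 ratio of the 9 genes was 0.24, against -0.01 over all genes tested, with 0.22 in array 1 and 0.01 in array 2. The upper limits of the 95% intervals reached 1.52-fold at most. The genes called on these arrays had mean log2 ratios of at least 0.41 or of -0.42 and lower, and 0 of them had a change as small as the largest among the factors.

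**Figure D1:**
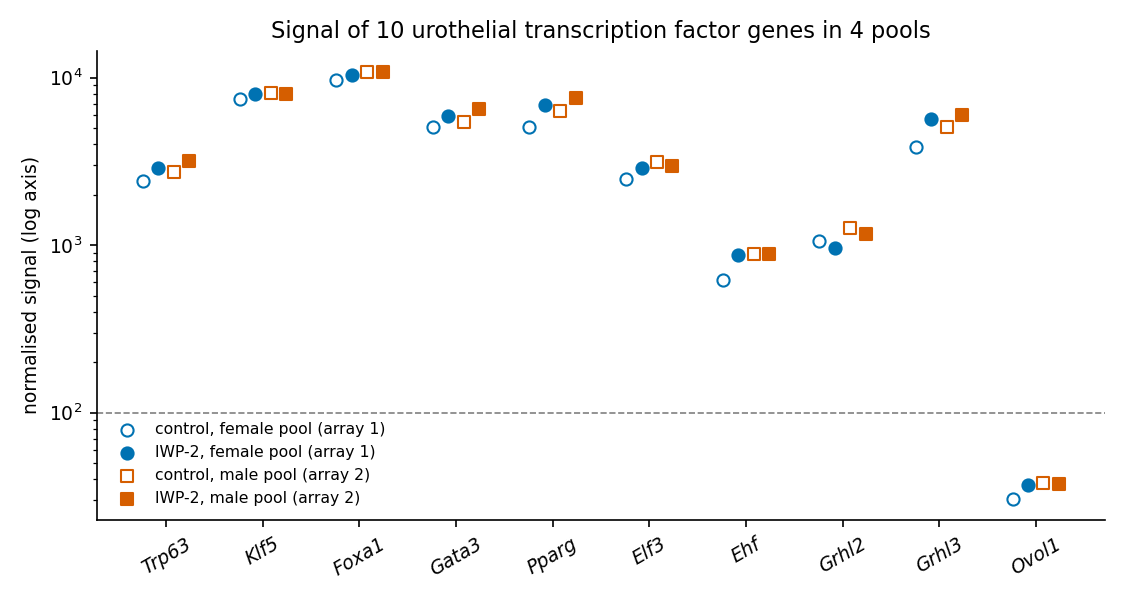
Normalised signal (log axis) of the brightest probe of each of the 10 genes in the 4 pools. Open symbols are control and filled symbols IWP-2, circles the female pools of array 1 and squares the male pools of array 2, and the dashed line marks the signal of 100 above which genes were tested. Heights of different genes are not comparable, since each probe has its own response. For Trp63, Gata3, Pparg and Grhl3 both IWP-2 pools lie above both control pools, and Ovol1 lies below the line in all 4.

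Trp63 (NM_011641, probe at chr16:25892012-25892071, mm9, plus strand) was the member with the closest values in the 2 arrays. Its normalised signal was 2427 in the female control and 2872 in the female IWP-2 pool, and 2718 in the male control and 3185 in the male IWP-2 pool. Both treated pools thus lay above both controls. The log2 ratio was 0.24 in array 1 and 0.23 in array 2, with a mean of 0.24 ± 0.066 (SE, n = 2), a 95% interval from 0.08 to 0.40 and a limma adjusted p of 0.183. Of all genes tested, 4.32% had a larger rise.

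Trp63 gives rise to several mRNAs, and 4 different probes on the array read parts of it. The brightest names 4 of the 8 RefSeq mRNAs of the gene and a further one, at chr16:25871159-25871218 (mm9, plus strand), names 3 of the others. Its sequence is shown because it carries a run of 6 CAG triplets, given in capitals, a repeat that many transcripts carry.
Trp63 probe 2: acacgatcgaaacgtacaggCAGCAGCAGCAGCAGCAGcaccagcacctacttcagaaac

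This probe had a normalised signal of 355 in the female control and 456 with IWP-2, and of 401 in the male control and 424 with IWP-2. Both treated pools lay above both controls, by 0.36 within array 1 and 0.08 within array 2 on the log2 scale. The third probe, designed on the cDNA AK138305, had 144 and 143 in the female pools and 108 and 174 in the male pools. It thus gave a log2 ratio of -0.01 in array 1 and 0.69 in array 2, and its spots did not overlap between the arrays. The dimmest, designed on AK048623, had 42.7 and 61.5 in the female and 46.3 and 76.2 in the male pools, with log2 ratios of 0.53 and 0.72. The last 2 probes name no RefSeq mRNA of Trp63. All 4 probes had a mean above 0. The log2 ratio of array 1 less that of array 2 was 0.01 for the brightest, and 0.28, -0.70 and -0.19 for the others.

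**Figure D2:**
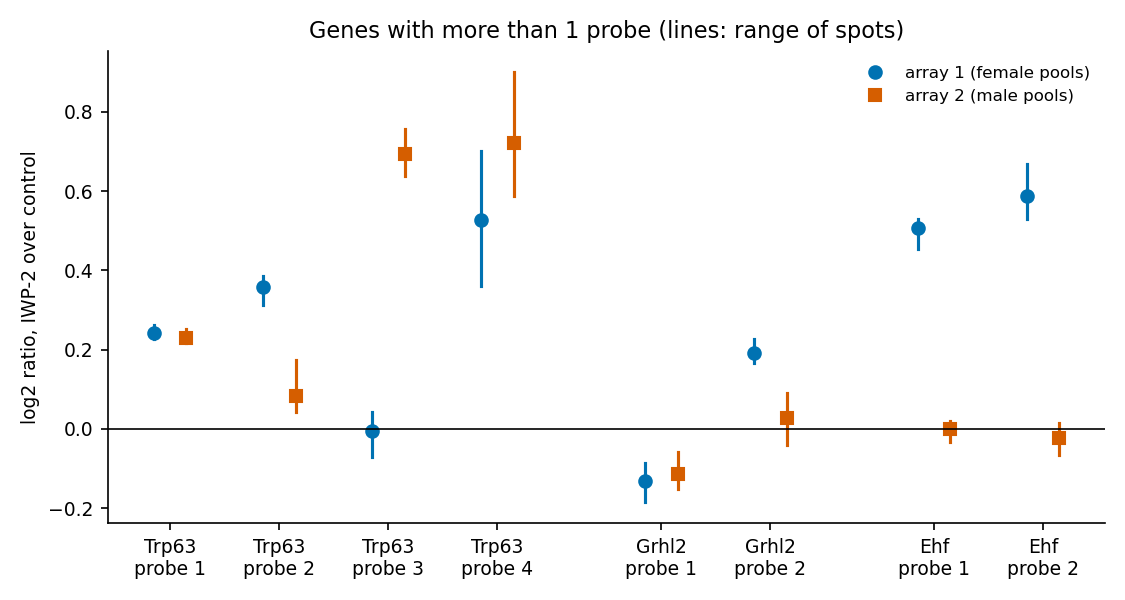
Log2 ratio of IWP-2 over control (vertical axis) for each probe of the 3 genes with more than 1 probe, numbered from the brightest. Circles are array 1 (female pools), squares array 2 (male pools), and vertical lines the range of the spots of that probe. The Ehf probes match each other within each array, with 0.51 and 0.59 in array 1 and 0.00 and -0.02 in array 2, whereas the third Trp63 probe is near 0 in array 1 and at 0.69 in array 2.

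Klf5 (NM_009769) showed the smallest mean change of the 9 tested. Its probe spans chr14:99702656-99712388 (mm9, plus strand), a stretch of 9733 bases for 60 bases of probe. The probe therefore joins parts that lie apart in the genome, as the exons of a spliced mRNA do, and it is shown for that reason.
Klf5 probe: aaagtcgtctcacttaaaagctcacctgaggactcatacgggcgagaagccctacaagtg

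Its normalised signal was 7494 in the female control and 7941 with IWP-2, and 8081 in the male control and 8035 with IWP-2. Only the female control was low, and the groups overlapped. The mean log2 ratio was 0.04 ± 0.069 (SE, n = 2) with a 95% interval from -0.13 to 0.20 (limma adjusted p = 0.967).

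Of the factors that act together on superficial cell genes, none was called, and differences between them were not tested. Foxa1 (NM_008259, probe at chr12:58641764-58641823, mm9, minus strand), a forkhead factor that opens closed chromatin, had a normalised signal of 9663 in the female control, 10412 in the female IWP-2 pool, 10727 in the male control and 10789 in the male IWP-2 pool. The groups overlapped, and the log2 ratio was 0.11 in array 1 and 0.01 in array 2. The 95% interval of its mean ran from -0.11 to 0.22 (limma adjusted p = 0.907).

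Gata3 (NM_008091, probe at chr2:9779551-9779610, mm9, minus strand), a zinc finger factor that is also needed in the ureteric bud, had 5044 in the female control, 5867 in the female IWP-2 pool, 5443 in the male control and 6516 in the male IWP-2 pool. Both treated pools lay above both controls. Its log2 ratio was 0.22 in array 1 and 0.26 in array 2, with a mean of 0.24 ± 0.067 (SE, n = 2), a 95% interval from 0.08 to 0.40 and a limma adjusted p of 0.180.

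Pparg (NM_011146, probe at chr6:115440213-115440272, mm9, plus strand) encodes a nuclear receptor that binds fatty acids and is also the main regulator of fat cells. Its signal was 5038 in the female control, 6888 in the female IWP-2 pool, 6303 in the male control and 7534 in the male IWP-2 pool. Both treated pools again lay above both controls, by 0.45 within array 1 and 0.26 within array 2 on the log2 scale. The mean was 0.35 ± 0.077 (SE, n = 2), with a 95% interval from 0.17 to 0.54 and a limma adjusted p of 0.109, the smallest of the group.

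Elf3 (NM_007921, probe at chr1:137150328-137150387, mm9, minus strand) had 2486 in the female control and 2874 with IWP-2, and 3138 in the male control and 2970 with IWP-2. It was thus higher with IWP-2 in array 1 and lower in array 2, by 0.21 and -0.08 on the log2 scale. All 4 spots of array 1 were above 0 and 0 of 4 in array 2. The mean was 0.06, with a 95% interval from -0.15 to 0.27 (limma adjusted p = 0.931).

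Ehf (NM_007914), a further ETS factor of epithelia, differed most between the arrays. Its brighter probe (chr2:103106827-103106886, mm9, minus strand) had a signal of 617 in the female control, 878 in the female IWP-2 pool, 883 in the male control and 883 in the male IWP-2 pool. The female control stood apart from the other 3 pools, which were level. The log2 ratio was 0.51 in array 1 and 0.00 in array 2, with a mean of 0.25 ± 0.12 (SE, n = 2) and a 95% interval from -0.03 to 0.54 (limma adjusted p = 0.479).

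The dimmer probe of Ehf lies at chr2:103114043-103114102 (mm9, minus strand), away from the brighter one, and is shown because it gave the same pattern from a separate stretch of the mRNA.
Ehf probe 2: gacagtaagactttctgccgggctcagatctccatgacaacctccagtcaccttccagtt

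Its signal was 176 in the female control, 264 in the female IWP-2 pool, 272 in the male control and 267 in the male IWP-2 pool. Again only the female control was low, and the log2 ratio was 0.59 in array 1 and -0.02 in array 2. The probes share the pools, so that this repeats the hybridisation and not the experiment.

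Of the grainyhead-like genes, Grhl3 had the largest mean change of all 9 factors and Grhl2 the only mean below 0. Grhl3 (NM_001013756, probe at chr4:135097991-135098050, mm9, minus strand), known from the superficial layer and from the epidermal barrier, had 3875 in the female control, 5624 in the female IWP-2 pool, 5047 in the male control and 5985 in the male IWP-2 pool. Both treated pools lay above both controls, with a larger distance in the female pools. The log2 ratio was 0.54 in array 1 and 0.25 in array 2, with a mean of 0.39 ± 0.088 (SE, n = 2), a 95% interval from 0.18 to 0.60 and a limma adjusted p of 0.115. Of all genes tested, 1.30% had a larger rise.

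Grhl2 (NM_026496, probe at chr15:37293139-37293198, mm9, plus strand), which acts on genes of adherens and tight junctions, had 1052 in the female control, 960 in the female IWP-2 pool, 1258 in the male control and 1163 in the male IWP-2 pool. It was slightly lower with IWP-2 within each array, by -0.13 and -0.11 on the log2 scale, but the male treated pool lay above the female control and the groups overlapped. The mean was -0.12 ± 0.066 (SE, n = 2), with a 95% interval from -0.28 to 0.04 (limma adjusted p = 0.576).

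The direction of Grhl2 rests on the probe. Its dimmer probe, at chr15:37239426-37239485 (mm9, plus strand), is shown because it gave the opposite sign.
Grhl2 probe 2: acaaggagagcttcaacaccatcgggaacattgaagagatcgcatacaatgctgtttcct

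This probe had 70.0 and 79.9 in the female pools and 73.0 and 74.4 in the male pools, so that it was under the signal of 100 and not tested, with log2 ratios of 0.19 and 0.03. Ovol1 (NM_019935, probe at chr19:5549209-5549268, mm9, minus strand), a zinc finger factor that represses transcription and promotes epithelial differentiation, was the member that was not tested. Its signal was 30.7 in the female control, 37.0 in the female IWP-2 pool, 37.9 in the male control and 37.4 in the male IWP-2 pool, well above background in all spots. The female control was again the lowest, and the log2 ratio was 0.27 in array 1 and -0.02 in array 2.

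**Figure D3:**
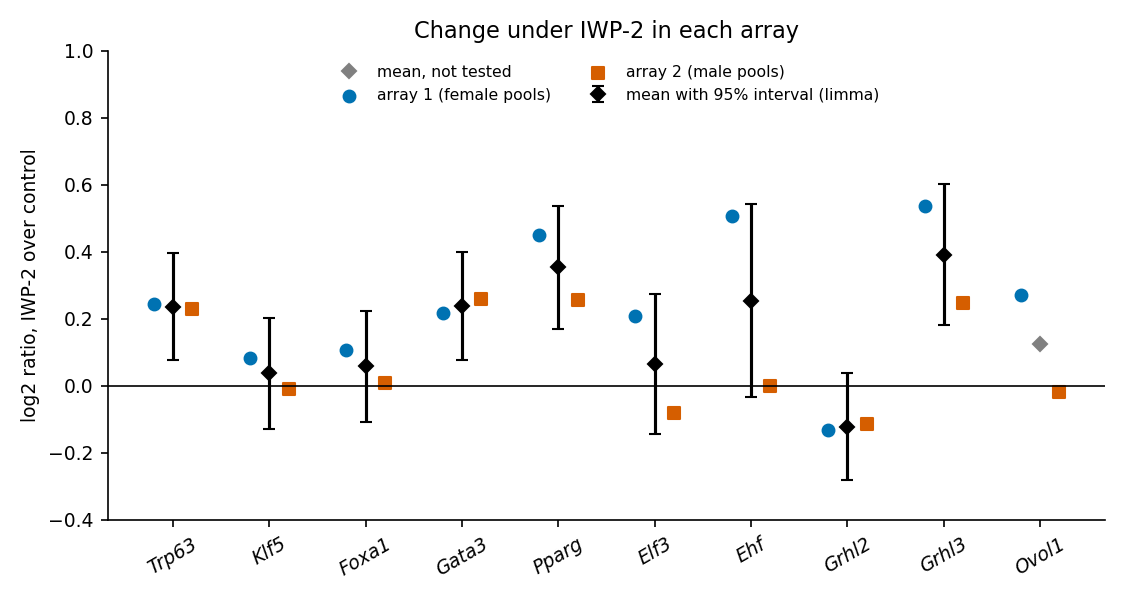
Log2 ratio of IWP-2 over control for the 10 genes (vertical axis), with circles for array 1 (female pools), squares for array 2 (male pools) and diamonds for the mean with its 95% interval from limma. Grhl3 has the highest mean, at 0.39, and Grhl2 the lowest, at -0.12. Array 1 lies above array 2 for all genes but Gata3 and Grhl2, and Ovol1, in grey, was not tested.

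Over the group, 6 of 9 tested factors were higher with IWP-2 in both arrays, where 25.7% of all genes were, and 1 of 9 was lower in both, where 29.1% were. Both treated pools lay above both controls for 4 of 9 (14.0% of all genes) and below both for 0 of 9 (17.0% of all genes). None passed a filter of 1.5-fold in both arrays, which 0.0783% of the 14051 genes with a sufficient control signal passed upwards and 0.363% downwards. The spots of the brightest probe of each tested factor varied little, with an SD of 0.009 to 0.046 on the log2 scale. Dimmer probes varied more, up to 0.14 for the dimmest of Trp63. The SE of a factor does not follow its own difference between the arrays closely, since limma draws it towards the variance shared by all genes, with 5.49 prior against 1 residual degree of freedom: Trp63, with an SD of 0.010 between arrays, and Gata3, with 0.029, had SEs of 0.066 and 0.067.

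The arrays differed in the control pools more than in the treated ones. With the median of all genes taken off, the male control was above the female control for 9 of 9 factors, by a median of 0.26 on the log2 scale, from 0.11 for Klf5 and Gata3 to 0.52 for Ehf. Between the treated pools the male was above the female for 9 of 9 as well, but by a median of 0.09, with 0.28 for Grhl2 as the highest. Over all genes tested, 7168 of 14336 lay above 0 in either comparison, as the median was taken off. Their SD was 0.31 between the controls and 0.22 between the treated pools. A wider difference between the controls was thus not particular to the factors. Among other epithelial lists, the male control was above the female control for 23 of 23 genes of adhesion and polarity (median 0.31). The same held for 12 of 12 uroplakin and superficial cell genes (0.31) and 11 of 11 keratins (0.35). In these lists the treated pools differed by medians of 0.00, -0.01 and 0.01. The control counts were 12 of 19 for other epithelial transcription factors (0.11) and 15 of 18 for basal adhesion genes (0.24). Between the treated pools these were 10 of 19 (0.00) and 15 of 18 (0.06). The 10 smooth muscle genes went the other way, with 0 of 10 higher in the male control (median -0.34) and 2 of 10 in the male treated pool (-0.14). Lower male controls were also seen for lamina propria and adventitia genes (0 of 10 higher, -0.15) and repressors of the epithelial state (0 of 6, -0.20). Schwann cell and neuron genes had 1 of 9 higher (-0.23) and endothelial genes 2 of 10 (-0.05). Macrophage genes had 5 of 9 higher (0.15) and proliferation genes 6 of 9 (0.06). These are single pools of either sex with different dyes, so this is a description of 4 pools, and the part of it in the members' ratios was not tested.

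**Figure D4:**
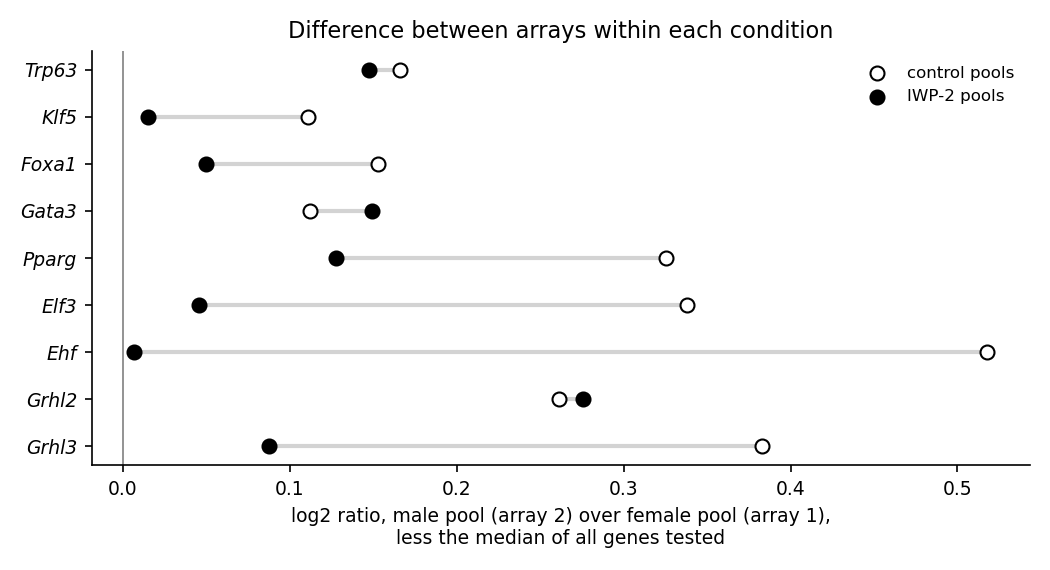
Log2 ratio of the male pool (array 2) over the female pool (array 1), less the median of all genes tested (horizontal axis), for the control pools (open) and the IWP-2 pools (filled) of the 9 tested factors. The control pools differ by up to 0.52, for Ehf, and the IWP-2 pools by at most 0.28, for Grhl2.

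The genes around the factors were read from lists of urothelial and other cell type genes. WNT feedback genes, read first as the check of the inhibitor, had 7 of 7 tested members called lower by limma (0.886% of all genes). Axin2 was at -1.91 ± 0.099 on the log2 scale (SE, n = 2, limma adjusted p = 0.000826). Lgr5 was at -3.12, Tcf7 at -1.36 and Wif1 at -1.33, with a list median of -1.33. With IWP-2 the signal of Lgr5 was 15 in array 1, the floor to which lower signals were set, and 18.6 in array 2. The size of its ratio is thus limited by the floor. The study had already reported Axin2, Lgr5, Tcf7 and Wif1 as lowered on these arrays, so this check is not independent of that report. Of 12 uroplakin and superficial cell genes, limma called 0 (1.25% of all genes). FOXA1, GATA3 and PPARG act on the uroplakins, and whether all 12 are their targets was not tested. Unadjusted, 7 were higher (6.27% of all genes) and 0 lower (6.64%) at a limma p under 0.05. All 12 had a mean above 0, where 47.0% of all genes had. So had 10 of 10 smooth muscle and 8 of 9 macrophage genes, but 1 of 10 lamina propria and adventitia, 2 of 10 endothelial and 3 of 9 Schwann cell and neuron genes. The median of the 12 genes was 0.27. That median was 0.48 in array 1 and 0.09 in array 2. Upk1a, which encodes a plaque protein, had the highest mean, at 0.36 (limma adjusted p = 0.117), and Sprr2f the lowest, at 0.01 (limma adjusted p = 0.996).

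PPAR target genes, which take part in fatty acid uptake, storage and oxidation, had nearly the same median in both arrays. Of 15 tested, limma called 2 higher (0.363% of all genes) and 0 lower (0.886%). In both arrays 13 were higher (25.7% of all genes) and 0 lower (29.1%). At an unadjusted limma p under 0.05, 11 were higher (6.27% of all genes) and 0 lower (6.64%). The median was 0.27, with 0.28 in array 1 and 0.25 in array 2. Aqp3, a water and glycerol channel of the urothelium, had 7302 in the female control, 13071 in the female IWP-2 pool, 9885 in the male control and 14030 in the male IWP-2 pool. Both treated pools lay above both controls, and Aqp3 rose by 0.67 ± 0.093 on the log2 scale (SE, n = 2, limma adjusted p = 0.0331).

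Angptl4, a secreted inhibitor of lipoprotein lipase, rose by 0.59 ± 0.068 (SE, n = 2, limma adjusted p = 0.0175). Its signal was 1453 in the female control, 2239 in the female IWP-2 pool, 1514 in the male control and 2215 in the male IWP-2 pool, so that the conditions were well apart. Several of these genes are used by fat and muscle cells too and not by the urothelium alone. The following 4 were named after their values were seen and were not called. Log2 ratios in arrays 1 and 2 were 0.25 and 0.28 for Fabp4, a fatty acid binding protein of fat cells and endothelium, 0.18 and 0.39 for Cd36, a fatty acid transporter, and 0.28 and 0.15 for Plin2, a lipid droplet protein. Adipoq, a hormone gene of fat cells, had 300.2 and 205 in the female and 66.3 and 175 in the male pools, with log2 ratios of -0.55 and 1.40. The part of fat cells in the ratios of this list was not tested. The control pools did not differ in this list as they did in the uroplakin, keratin and adhesion and polarity lists (median 0.00, 8 of 15 higher in the male).

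Of 11 keratins tested, 1 was called higher (0.363% of all genes) and 0 lower (0.886%). At an unadjusted limma p under 0.05, 3 were higher (6.27% of all genes) and 0 lower (6.64%). Krt15, a keratin of basal cells, had 2307 in the female control, 3478 in the female IWP-2 pool, 3180 in the male control and 4862 in the male IWP-2 pool, and rose by 0.60 ± 0.067 (SE, n = 2, limma adjusted p = 0.0153), with 0.59 and 0.61 in the arrays. The list had 0.32 as its median in array 1 and -0.10 in array 2, and Krt17, a keratin of activated epithelia, had log2 ratios of 0.08 and -0.85. Of 18 genes of basal adhesion, many of them tied to p63, 1 was called lower (0.886% of all genes) and 0 higher (0.363%). This was Col17a1, a collagen of hemidesmosomes, with 1083 in the female control and 689 with IWP-2, and 1156 in the male control and 786 with IWP-2. Its log2 ratio was -0.61 ± 0.069 (SE, n = 2, limma adjusted p = 0.0168), and that of Perp, a desmosome protein induced by p63, was 0.28 (limma adjusted p = 0.165). The basal adhesion list had a median of 0.05, with 1 gene higher (6.27% of all genes) and 2 lower (6.64%) at an unadjusted limma p under 0.05.

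None of 23 genes of epithelial adhesion and polarity was called by limma (1.25% of all genes). At an unadjusted limma p under 0.05, 4 were higher (6.27% of all genes) and 1 lower (6.64%). Their median was 0.09, with 0.24 in array 1 and -0.08 in array 2. Prom2 had the highest mean, at 0.29, and Cdh3 the lowest, at -0.17. None of 19 other epithelial transcription factors was called by limma either (4 higher and 2 lower unadjusted), with a median of 0.06, Sox9 at 0.31 and Trps1 at -0.26. Of the 6 repressors of the epithelial state, such as the Snail, Zeb and Twist genes, limma called 0 (1 higher and 2 lower unadjusted), with a median of -0.13. Snai1 had the same ratio in both arrays, -0.30 and -0.29 (limma adjusted p = 0.116), and Twist2 a mean of 0.19.

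**Figure D5:**
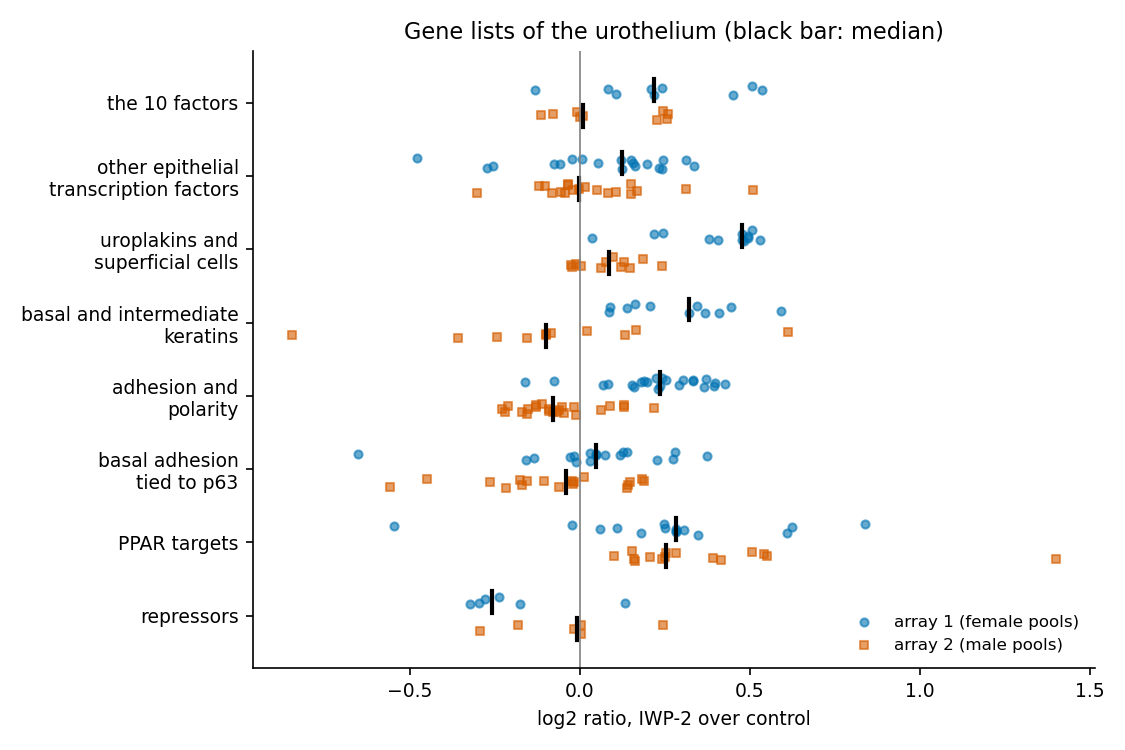
Log2 ratio of IWP-2 over control (horizontal axis) for each tested gene of 8 lists, with circles for array 1 (female pools), squares for array 2 (male pools) and black bars for the medians. In the keratin and the adhesion and polarity lists the median is above 0 in array 1 and below 0 in array 2, whereas the PPAR targets have 0.28 and 0.25.

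Markers of the other cells of the ureter were read on the same arrays. Of all genes tested, limma called 0.363% higher and 0.886% lower, and 6.27% were higher and 6.64% lower at an unadjusted p under 0.05. Smooth muscle genes had 0 of 10 called by limma (2 higher and 0 lower unadjusted) and a median of 0.14, with 0.00 in array 1 and 0.24 in array 2. Des had the highest mean, at 0.21, and Lmod1 the lowest, at 0.05, and their summed signal was 103237 and 87267 in the controls and 102895 and 102371 with IWP-2. Of 10 lamina propria and adventitia genes, 1 was called, Aldh1a2, the retinoic acid synthesizing enzyme of the lamina propria, at -0.63 (limma adjusted p = 0.0281). The list had a median of -0.13, with Dpt at 0.08 as the highest and Car3 at -0.64 as the lowest mean (limma adjusted p = 0.815 and 0.0779). Aldh1a2, Car3 and Thy1 (-0.48), the lowest of the list, had been reported by the study as reduced on these same arrays. The medians were -0.06 for endothelial, 0.13 for macrophage and -0.08 for Schwann cell and neuron genes, with 0 called in each by limma (1 higher and 1 lower, 2 higher and 0 lower, and 2 higher and 3 lower unadjusted). The highest and lowest means were 0.19 for Tek and -0.18 for Plvap in the endothelial, 0.31 for Lyz2 and -0.15 for Mrc1 in the macrophage, and 0.24 for S100b and -0.29 for Tubb3 in the Schwann cell and neuron list. Proliferation genes were lower in both arrays in 9 of 9 (29.1% of all genes), with a median of -0.34. limma called 0 of them, and unadjusted 0 were higher and 9 lower (6.64% of all genes). Their means ran from -0.21 for Pcna to -0.39 for Mki67. For the epithelial adhesion and polarity genes the summed signal was 59430 and 72939 in the controls and 69465 and 70579 with IWP-2, so that both treated pools lay between the controls, and for the 12 uroplakin and superficial cell genes 118690 and 147285 in the controls and 156507 and 156593 with IWP-2.

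Starts of transcription could be read for 5 of the 10 genes from RefSeq (GRCm38.p6), and the 250 bases before each were searched on both strands for 7 motifs. This gave 7 promoters, 3 of them of Pparg, and matches are counted over these 7 promoters beside the share of all promoters. The TCF/LEF motif through which beta-catenin acts, taken as CTTTGAT or the same letters ending in AA, TA or TT, was found in 1 of 7, that of Foxa1, where 14.8% of 32851 promoters hold it. GGGCGG, the letters read by KLF and SP factors, was found in 5 of 7 (32.7% of promoters), 2 of them of Pparg, TGTTTAC, read by forkhead factors, in 1 of 7, that of Foxa1 (3.17%), and CGGAAG, read by ETS factors, in 1 of 7, of Pparg (13.6%). AACCNGTT, read by grainyhead-like factors (1.79%), AGATAA, read by GATA factors (9.99%), and the direct repeat read by PPARG with its partner RXR (0.0335%) were found in 0 of 7. Foxa1 is shown for its 3 TCF/LEF matches, 2 of which lie side by side and each share bases with the forkhead match, and Grhl3 and Gata3 for comparison, as genes with both treated pools above both controls. Capitals mark all motif matches, and a match is a run of letters and not a bound site.
Foxa1, chr12:57546112-57546361, minus strand: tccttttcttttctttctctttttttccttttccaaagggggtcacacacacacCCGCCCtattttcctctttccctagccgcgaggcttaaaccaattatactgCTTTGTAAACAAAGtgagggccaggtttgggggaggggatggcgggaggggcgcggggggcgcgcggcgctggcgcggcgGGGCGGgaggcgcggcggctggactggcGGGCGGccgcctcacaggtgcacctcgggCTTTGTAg
Grhl3, chr4:135573633-135573882, minus strand: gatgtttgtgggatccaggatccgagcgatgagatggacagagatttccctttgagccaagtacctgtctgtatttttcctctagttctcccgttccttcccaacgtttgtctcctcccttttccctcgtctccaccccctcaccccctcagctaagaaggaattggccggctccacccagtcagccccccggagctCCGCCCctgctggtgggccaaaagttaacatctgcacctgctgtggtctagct
Gata3, chr2:9878601-9878850, minus strand: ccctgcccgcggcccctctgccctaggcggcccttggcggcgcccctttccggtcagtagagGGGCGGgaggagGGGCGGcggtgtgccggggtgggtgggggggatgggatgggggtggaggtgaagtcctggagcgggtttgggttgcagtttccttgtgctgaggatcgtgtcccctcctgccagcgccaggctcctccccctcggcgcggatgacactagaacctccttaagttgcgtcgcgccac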

How the data were processed

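Total RNA of 4 pools was hybridised on 2 two-colour Agilent arrays of 60-base probes on 1 slide. The intensities deposited by the authors were per-spot processed signals of Agilent Feature Extraction (version 10.7.3.1 in the submitters' notes, 12.2.0.7 per the file headers), background-subtracted and dye-normalised, with log10 ratios of red over green beside them, which the scripts used only as a check of direction. The authors also deposited a table of signed fold changes per probe, here read as a score and used as an alternative. The study filtered on a control intensity above 100 and a fold change of 1.5, and the requirement of that fold in both arrays was set here. The direction of each ratio was taken from the dyes in the labels, with IWP-2 in red on array 1 and in green on array 2.

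From these, control spots and spots with outlier flags (3.22% and 3.32% of spots) were left out, the log ratios were fitted by loess within each array (span 0.3, 4 iterations), spots of a probe were averaged, signals under 15 were set to 15 and log2 was taken. A gene was read from its brightest probe. Genes with a mean signal above 100 in either condition (14336) were tested with limma 3.58.1 in R 4.3.3 (lmFit and eBayes) on the log2 ratios against 0, all turned to IWP-2 over control, with 1 residual and 5.49 prior degrees of freedom, and Benjamini-Hochberg adjustment over all genes tested. Signals are not normalised between arrays, of which there were only 2, and this sets the precision. The labels do not say how pups were assigned to pools. The p-values rest on the spread between 2 within-array ratios, drawn towards the variance shared by all genes, and not on a spread between animals. Control and IWP-2 pools of an array share the replicate number and the sex, and each ratio is taken within an array. The limma script was tested on simulated data with changes larger than the mean change of any factor, so that test says nothing about changes of their size. All 10 members, and in other lists the genes past the threshold (up to 4) and, with fewer than 4, the tested genes with the highest and lowest mean, were named, besides a few said to be named after their values were seen. The members and lists were chosen with earlier results of these data known. The alternatives were other normalizations and background corrections, other floors, filters and probe rules, each array alone, a fit without the block and the deposited fold changes. Promoters and gene names came from RefSeq (GRCm38.p6), where all 10 symbols matched, and probe positions (mm9) from the array files.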

Additional observations from a re-analysis of the deposited data

Results flagged for a closer look

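These results differed in sign between the arrays, the female pools (array 1) against the male pools (array 2). Each array holds 1 pair of pools and the dyes were exchanged, so the difference was not tested, and the values are given as the log2 ratio of array 1 less that of array 2. Among the factors they were 0.29 for Elf3, 0.092 for Klf5 and 0.29 for Ovol1. Among other genes they were 0.058 for Sprr2f, 0.93 for Krt17, -0.18 for Acsl1, -0.28 for Lmod1 and -1.95 for Adipoq, the last named after its values were seen. Among list medians they were 0.13 for other epithelial transcription factors, 0.42 for keratins, 0.31 for epithelial adhesion and polarity genes, 0.090 for basal adhesion genes and -0.16 for Schwann cell and neuron genes.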

How the results depend on the processing

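Across 12 alternative settings the mean of each factor kept its sign, except Grhl2, which was 0.11 when its second brightest probe replaced the brightest, a choice added after seeing the data. The number of factors called was 0 under all of these but 2. With normexp background correction it was 1, Grhl3 (0.39, limma adjusted p = 0.0463). With the deposited fold changes it was 3, Trp63 (0.26), Grhl2 (-0.14) and Gata3 (0.26), each at an adjusted p of 0.0162. The deposited table gives the same fold for both arrays in 5009 of 14336 genes, these 3 factors among them, so that their spread between arrays was 0 in that fit; the medians of its columns are 1 and 1, its centring is unstated, and its folds run the same way as the scanner ratios. Over all genes, 52 were called higher and 127 lower, and the counts were 623 and 698 with the deposited table, 17 and 50 with the mean of all probes, 154 and 248 with normexp, and 32 higher with the processed signals as given. Median centring called 85 higher, raised the share of higher calls from 29.1% to 44.0%, and shifted the median of all genes to 0.04. Without a filter on signal limma called 0 higher and 0 lower (880 and 1149 unadjusted). Pairing the pools within an array is part of the ratio, and the fit with no replicate block called 0 genes higher and 8 lower (410 and 568 unadjusted) and 0 factors. At 2-fold the filter passed 0 genes higher and 19 lower.

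Either array alone gave values with no test. The median of the factors was 0.0084 without array 1 and 0.22 without array 2. The filter passed 25 to 112 genes higher and 78 to 160 lower, and the medians ranged from -0.041 to 0.048 for basal adhesion, from -1.36 to -1.07 for WNT feedback and from -0.35 to -0.30 for proliferation genes. The widest ranges were from -0.10 to 0.32 for keratins, from 0.09 to 0.48 for uroplakin and superficial cell genes and from -0.08 to 0.24 for adhesion and polarity genes. In settings that kept both arrays, some medians moved by more than the spread between arrays. With median centring these were 0.31 for PPAR targets, -0.018 for endothelial and -0.29 for proliferation genes. With the mean of all probes they were -0.80 for WNT feedback and -0.28 for proliferation genes. For WNT feedback genes the median was also -1.05 with normexp and -1.10 without the filter. The cause of these shifts was not tested. With 2 arrays, limma called no gene with a mean log2 ratio between -0.42 and 0.41.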
